A study of Mus musculus with 6 samples.

Results

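Cd93 and 9 other genes that haematopoietic stem cells (HSCs) are known to share with the endothelium were followed in 6 RNA-sequencing libraries of mouse HSCs. The members, Cd93, Cdh5, Tie1, Tek, Esam, Egfl7, Robo4, Emcn, Eng and Kdr, were taken by symbol and make up 10 of the 47937 genes in the deposited table. The cells came from the bone marrow of wild-type male C57BL/6 mice aged 8 weeks, and no animal was treated. After lineage-positive cells had been removed with magnetic beads, HSCs were sorted as Kit and Sca-1 positive, Slam1 positive cells without CD34, Flt3 or CD48. The sort then split them by surface CD93 protein, and 3 libraries were made from cells that carried it (CD93pos) and 3 from cells that lacked it (CD93neg). The labels state biological replicates but do not tie animals to libraries, so p-values measure the spread between these libraries.

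CD93 is a transmembrane C-type lectin of endothelial cells, of early B cells and of some progenitors, and it binds the matrix protein multimerin 2 at the vessel wall. HSCs arise in the embryo from haemogenic endothelium, and adult HSCs keep some endothelial surface genes, such as those of the angiopoietin receptor family and of cell junctions. Tie1 and Tek encode the paired receptors of the angiopoietin pathway, in which Tek binds the ligand Angpt1 and Tie1 acts as its partner. Eng is an accessory receptor for ligands of the BMP and TGF-beta family, and Kdr is the main signalling receptor for VEGF. Cdh5 (VE-cadherin) and Esam are adhesion molecules of endothelial junctions, Emcn is a surface sialomucin, Robo4 is a guidance receptor, and Egfl7 is a secreted matrix protein.

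Several properties of the libraries differed beside the sort. Reads assigned to genes numbered 5794528 to 9509304 in CD93pos and 2832653 to 4614396 in CD93neg. The genes tested were the 11805 whose normalized count averaged 10 or more over the 6 libraries. CD93neg replicate 1 lacked any read of 71.0% of them, CD93neg replicates 2 and 3 of 26.4% and 16.0%, and no CD93pos library of more than 13.5%. The mice are labelled male, yet CD93neg replicates 2 and 3 had 2419 and 1143 reads of Xist and no read of 4 Y-linked genes (Ddx3y, Kdm5d, Uty and Eif2s3y), while the CD93pos libraries had 1100 to 2196 reads of those 4 and at most 12 of Xist. CD93neg replicate 1 had 0 reads of Xist and 1 read of the 4 Y-linked genes. The sex-linked reads thus set CD93neg replicates 2 and 3 apart from CD93pos and put their labelled sex in doubt. CD93neg replicate 1 had too few such reads to place. In every comparison below CD93 status and the sex of the source mice cannot be told apart. Results are therefore given with and without CD93neg replicate 1, and the reads of other cell types are given beside them.

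Promoters of 3 members are shown because their genes turned out to be spread over the libraries in different ways: Tie1 was read in all 6 libraries, its partner Tek mainly in CD93pos, and Eng in both groups with almost nothing in CD93neg replicate 1. They run from 250 bases before to 50 bases after the annotated start (RefSeq, GRCm38.p6), 5′ to 3′ on the gene's strand. Capitals mark AGGAAG or its reverse complement CTTCCT, a sequence recognised by ETS factors.
Tie1, chr4:118489800-118490099, minus strand: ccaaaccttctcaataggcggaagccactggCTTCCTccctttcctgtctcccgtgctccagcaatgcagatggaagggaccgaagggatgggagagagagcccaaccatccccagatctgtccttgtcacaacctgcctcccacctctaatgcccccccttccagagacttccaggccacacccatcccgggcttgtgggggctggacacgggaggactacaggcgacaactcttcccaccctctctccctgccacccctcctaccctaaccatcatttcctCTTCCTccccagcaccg
Tek, chr4:94739039-94739338, plus strand: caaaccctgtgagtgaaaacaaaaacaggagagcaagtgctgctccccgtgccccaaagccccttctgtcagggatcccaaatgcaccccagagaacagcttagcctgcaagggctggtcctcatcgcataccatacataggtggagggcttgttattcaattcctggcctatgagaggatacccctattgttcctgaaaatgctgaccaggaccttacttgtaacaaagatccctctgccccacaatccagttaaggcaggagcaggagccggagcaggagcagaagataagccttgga
Eng, chr2:32646345-32646644, plus strand: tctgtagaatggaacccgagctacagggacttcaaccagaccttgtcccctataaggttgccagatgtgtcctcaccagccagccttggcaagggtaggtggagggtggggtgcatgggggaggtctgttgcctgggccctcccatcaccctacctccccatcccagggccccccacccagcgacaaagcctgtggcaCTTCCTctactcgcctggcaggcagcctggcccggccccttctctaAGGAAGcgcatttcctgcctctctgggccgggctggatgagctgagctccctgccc

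The promoter table held 9 promoters for 7 of the 10 members, 3 of them for Egfl7, and Cd93, Cdh5 and Esam had no entry. AGGAAG on either strand was found in 6 of the 9, and in 35.4% of the 32817 promoters of the same length in that table. Tie1 and Eng had 2 matches each, while Tek and Kdr had none. Other sequences that ETS factors recognise were not searched, so no match does not mean no ETS site. The GATA core GATAA, on either strand, was found in 3 of the 9, those of Tek, Emcn and 1 of the Egfl7 promoters, and in 25.4% of all promoters. A match is a description of the letters and not a bound site.

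Egfl7 also carries the hairpin of miR-126, a microRNA known in endothelium and HSCs, inside its gene (GRCm38 chromosome 2, 26591357 to 26591429). The mature strand is shown with its seed, bases 2 to 8, in capitals.
mmu-miR-126a-3p: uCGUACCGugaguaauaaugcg
The libraries were made from polyadenylated RNA and give no value for the mature microRNA. The hairpin's own row held 0 reads. It shares 73 exonic bases with Egfl7 on the same strand, so reads there may not have been assigned to it.

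Cd93, the gene of the sorted protein (ENSMUSG00000027435.8, GRCm38 chromosome 2, 148436640 to 148443563, minus strand), was read in every library but CD93neg replicate 1. Its normalized counts, which are reads divided by the authors' size factor of each library, were 414, 793 and 338 across CD93pos and 0, 399 and 59.4 across CD93neg, here and below in the order of replicates 1, 2 and 3. CD93neg replicate 2 lay between the CD93pos libraries, so the groups overlapped. The ratio of the group means was 3.38, or 2.25 without CD93neg replicate 1 and 17.4 without CD93neg replicate 2. On the log2(normalized count + 1) scale the difference was 4.06 (SE 2.54), or 1.63 (SE 0.93) without CD93neg replicate 1. It did not pass the test (limma, adjusted p = 0.541). Because the cells were sorted on this gene's product, these values check the labels and are not a finding.

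**Figure D1:**
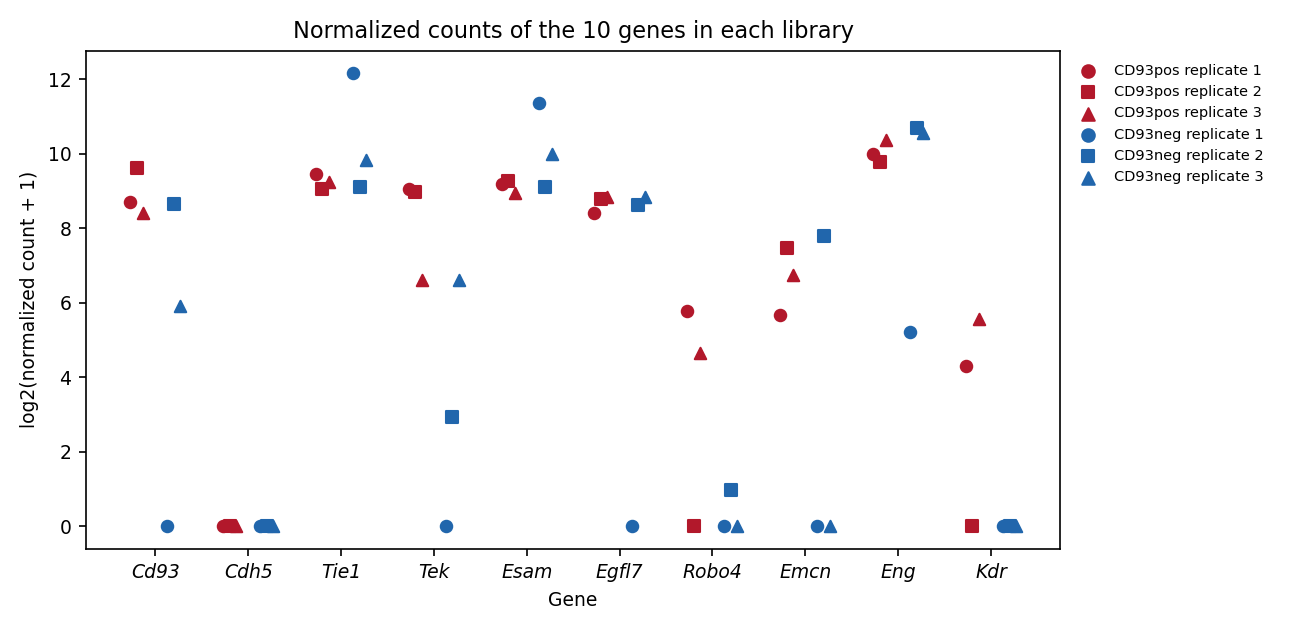
Normalized counts of the 10 genes on the log2(normalized count + 1) axis, with each point 1 library, CD93pos in red and CD93neg in blue. The groups of Cd93 overlap, and Cdh5 lies at 0 in all 6 libraries. In CD93neg replicate 1 Tie1 and Esam are high, while 6 of the other tested members also lie at 0.

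No member was called, and none separated the groups in normalized counts. limma, applied to all genes, called 0 of the 9 members tested and 0 of all 11805 genes (0%). At an unadjusted p under 0.05, 1 member was higher in CD93pos (Tek) and 0 lower, against 11.8% and 0.381% of all tested genes. The values of CD93pos all lay above those of CD93neg for 0 members, against 18.3% of tested genes, and all below for 0 members, against 1.92%. The count tests run on the recovered reads also called no member: edgeR called 0 genes in all (0%), and DESeq2 called 707 of 11651 genes (6.07%). The authors' deposited table holds 705 calls (5.97%), none of them a member, and its smallest member p-values before adjustment were 0.0211 for Kdr and 0.0285 for Robo4. Of the 9 tested members 7 had a positive log2 difference in limma, as did 79.9% of all tested genes. The median of the 9 was 3.15, beside 2.36 for all tested genes. Without CD93neg replicate 1, 5 were positive, against 60.1% of all tested genes. The medians were then 1.63, which is the value of Cd93 itself, and 0.43. Of the 8 tested members other than Cd93, 6 were positive with a median of 3.01, and 4 with a median of 1.34 without that library. Kdr and Robo4 met the minimum level only through CD93pos, so their direction was set by the filter. Under quantile normalization, which brings the median of all genes from 2.36 to 0.022, the differences of Robo4 and Kdr turned negative (-1.07 and -0.48).

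**Figure D2:**
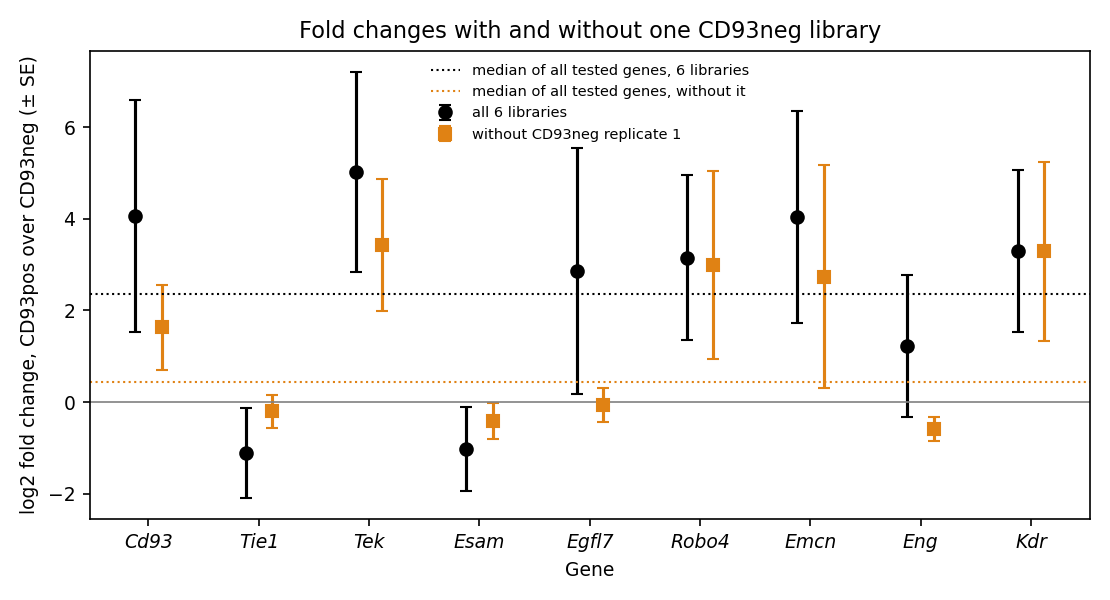
The log2 fold change of each tested member, CD93pos over CD93neg, with its SE, from all 6 libraries (black) and without CD93neg replicate 1 (orange); dotted lines give the medians of all tested genes. Egfl7 moves from 2.86 to -0.053 and Eng from 1.22 to -0.59, while Tek stays above both medians at 5.02 and 3.43.

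The paired angiopoietin receptors were spread differently over the libraries. Tek (ENSMUSG00000006386.15, GRCm38 chromosome 4, 94739289 to 94874976) had normalized counts of 532, 499 and 96.0 across CD93pos and 0, 6.66 and 96.9 across CD93neg. CD93pos replicates 1 and 2 were high, and CD93pos replicate 3 was level with CD93neg replicate 3. Tek averaged 376 ± 243 in CD93pos (SD, n = 3), 10.9 times the CD93neg average of 34.5 ± 54.1 (SD, n = 3). That ratio was 7.25 without CD93neg replicate 1 and 113 without CD93neg replicate 3. The log2 difference of Tek was 5.02 (SE 2.18) with an unadjusted p of 0.0497 in limma and an adjusted p of 0.410, which ranged from 0.0564 to 0.962 over the other settings.

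Tie1 (ENSMUSG00000033191.14, GRCm38 chromosome 4, 118471191 to 118490061) was read in all 6 libraries. Its normalized counts were 709, 532 and 610 across CD93pos and 4584, 547 and 913 across CD93neg. CD93neg replicate 1 stood far above the rest, and the other CD93neg libraries lay within or above the CD93pos range. The log2 difference was -1.10 (SE 0.98, limma adjusted p = 0.623), and -0.20 (SE 0.36) without that library. The CD93neg mean was 3.26 times that of CD93pos, and 1.18 times without CD93neg replicate 1.

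Tie1 gave a scale that needs no size factor. For 100 reads of Tie1 there were 75, 93.8 and 15.7 reads of Tek in CD93pos and 0, 1.22 and 10.6 in CD93neg. This ratio was higher in each CD93pos library than in any CD93neg library, by a narrow margin between the replicates numbered 3. Of the 11804 tested genes other than Tie1, 23.4% separated the groups in that direction on this scale and 0.407% in the other, so Tek was 1 of many such genes. This scale was chosen after the values were seen. For Cd93 the same ratio was 58.4, 149 and 55.4 across CD93pos and 0, 72.9 and 6.51 across CD93neg, which overlap.

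Angpt1, the ligand of Tek, was read in all 6 libraries with 7308, 4399 and 899 reads across CD93pos and 1320, 1639 and 969 across CD93neg. Its log2 difference was 0.063 (SE 0.745), inside the spread between libraries. Angpt4 had no read, and Angpt2 and the Tek phosphatase Ptprb had 3 and 20 reads in all. Itga5, an integrin subunit of fibronectin adhesion, was lower in each CD93pos library, with 20.7 ± 1.16 RPKM (reads per kilobase of exon and 1000000 assigned reads) against 84.4 ± 30.7 in CD93neg (SD, n = 3 each). Its log2 difference of -2.05 (SE 0.76) had an unadjusted p of 0.0265 and an adjusted p of 0.30 in limma. Of the 6 genes of this pathway list 2 were tested, and 0 passed in either direction.

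Among the junction genes, Esam (ENSMUSG00000001946.13, GRCm38 chromosome 9, 37528078 to 37538319) resembled Tie1. It had normalized counts of 587, 616 and 496 across CD93pos and 2658, 554 and 1017 across CD93neg. CD93neg replicates 1 and 3 were above all CD93pos libraries, and CD93neg replicate 2 was among them. The log2 difference was -1.02 (SE 0.92, limma adjusted p = 0.623), and -0.41 (SE 0.38) without CD93neg replicate 1. The CD93neg mean was 2.49 times that of CD93pos, and 1.39 times without that library. The ratio of Esam to Tie1 overlapped between the groups, with 81.2 to 116 Esam reads for 100 Tie1 reads across CD93pos and 58.0 to 111 in CD93neg.

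Cdh5 (ENSMUSG00000031871.8, GRCm38 chromosome 8, 104101625 to 104144511), which encodes the cadherin that defines endothelial junctions, had no read in any library. A count of 0 allows up to 3 reads, which is 0.134 CPM (reads per 1000000 assigned reads) over the CD93pos libraries and 0.287 CPM over CD93neg. The limit covers counting error only. Of 12 other junction genes, 9 were tested and 0 passed in either direction. A positive difference was found for 8, and for 5 without CD93neg replicate 1, against 79.9% and 60.1% of all tested genes. By reads per kilobase the highest were Ctnna1 and Ctnnb1 (alpha- and beta-catenin, which link cadherins to actin), F11r and Pecam1. Pecam1, an adhesion molecule of platelets, leukocytes and endothelium, had 804, 624 and 668 reads across CD93pos and 2217, 0 and 252 across CD93neg. Ctnnb1 had 2459, 1626 and 1600 reads across CD93pos and 1, 1523 and 316 across CD93neg, while Ctnna1 was read at 508 or more in all 6.

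Egfl7 (ENSMUSG00000026921.18, GRCm38 chromosome 2, 26580014 to 26593120) had overlapping levels in the groups, with 1 library at 0. Its normalized counts were 342, 440 and 458 across CD93pos and 0, 396 and 458 across CD93neg. The log2 difference of 2.86 (SE 2.69) became -0.053 (SE 0.37) without CD93neg replicate 1, and the ratio of means went from 1.45 to 0.969. It passed the limma test in neither case (adjusted p = 0.625 and 0.95). Egfl7 shares 64 exonic bases with Agpat2 on the opposite strand, and the use of strand in counting was not stated in the labels, so reads there cannot be assigned to either. It also shares 264 exonic bases with the protein-coding Gm20532 on the same strand, which had 0 reads and which no strand setting would separate.

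Eng (ENSMUSG00000026814.16, GRCm38 chromosome 2, 32646595 to 32682669) had the most reads of the members, 8209 in all. Its normalized counts were 1014, 880 and 1324 across CD93pos and 36.3, 1651 and 1524 across CD93neg. CD93neg replicate 1 was the lowest of the 6, and the other CD93neg libraries were the highest. The group means were therefore nearly equal, 1072 ± 228 and 1070 ± 898 (SD, n = 3 each), while the log2 difference was 1.22 (SE 1.55, limma adjusted p = 0.685). Without CD93neg replicate 1 it was -0.59 (SE 0.27, adjusted p = 0.353), with the CD93neg mean 1.48 times that of CD93pos. Eng shares 61 exonic bases with Fpgs on the opposite strand.

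The receptors that Eng works with were read at lower levels. Acvrl1, its partner receptor in endothelium, had 1 read in all, and the ligands Gdf2 and Bmp10 had none. Bmpr2, a type II receptor, had 149, 305 and 49 reads across CD93pos and 0, 77 and 70 across CD93neg. Tgfbr2 had 475, 72 and 63 reads against 0, 5 and 44, and Tgfb1 had 330, 266 and 132 against 0, 1 and 89. Of the 6 genes 3 were tested, each with a positive difference, as had 79.9% of all tested genes, and 0 passed in either direction (limma adjusted p of at least 0.449). Without CD93neg replicate 1, Bmpr2 went from 2.00 to -0.17, leaving 2 positive and 1 negative, while 60.1% of all tested genes were positive.

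Emcn (ENSMUSG00000054690.17, GRCm38 chromosome 3, 137341067 to 137432185) had normalized counts of 50.3, 176 and 106 across CD93pos and 0, 221 and 0 across CD93neg. CD93neg replicate 2 had the highest value of all 6 libraries, and the others of that group had no read. The group means without CD93neg replicate 1 were 111 and 110, and the log2 difference of 4.03 (SE 2.31) did not pass (limma adjusted p = 0.505). It was 2.74 without CD93neg replicate 1 or 3, and 6.63 without CD93neg replicate 2 (limma adjusted p = 0.0779).

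Kdr and Robo4 were read almost entirely in CD93pos, at low counts and in 2 of its 3 libraries. Kdr (ENSMUSG00000062960.10, GRCm38 chromosome 5, 75932827 to 75978458) had 41, 0 and 76 reads across CD93pos and none in any CD93neg library. With the CD93neg group taken as a whole at 3 reads, the most that a count of 0 allows, pooled CPM was at least 18.1-fold higher in CD93pos. This bound was 9.33-fold without CD93pos replicate 3 and 10.1-fold without CD93neg replicate 2. Robo4 (ENSMUSG00000032125.19, GRCm38 chromosome 9, 37401897 to 37415115) had 118, 0 and 39 reads across CD93pos and 0, 1 and 0 across CD93neg. The ratio of pooled CPM was 73.1, with an exact 95% counting interval of 12.9 to 2904, and 31.5 without CD93pos replicate 1. CD93pos replicate 2 had no read of either gene, so the groups overlapped at 0. The bound and the interval cover counting error only and leave out this spread between libraries. Both genes passed the filter only through CD93pos, so the direction of their folds was set by the filter.

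The log2 differences of Kdr and Robo4 were 3.29 (SE 1.77) and 3.15 (SE 1.81), and neither passed (limma adjusted p = 0.478 and 0.505). Without CD93pos replicate 2, the library in which neither was read, limma called both (adjusted p = 0.0207 and 0.0339) along with 774 genes in all. These calls rest on the choice of library left out and on a filter that both genes passed only through CD93pos, so they support no difference. Unread genes of this level were common. Among tested genes within 1.5 times the mean of Kdr in the other libraries, 77.5%, 46.0% and 35.3% had no read in CD93neg replicates 1, 2 and 3. Other VEGF genes were scarcely read: Kdr's paralogs Flt1 and Flt4 had 17 and 12 reads in all. Vegfc, a ligand of lymphatic vessels, had 129, 136 and 117 reads across CD93pos and 1, 0 and 195 across CD93neg. Of 9 VEGF ligands and receptors 2 were tested, and 0 passed in either direction. None of the 5 Slit and Robo partners of Robo4 was tested, and Unc5b, its binding partner in endothelium, had no read.

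Per length, the members spanned a wide range of levels in CD93pos. In RPKM the order was Eng with 59.7 ± 13.6, Esam with 44.4 ± 4.41, Tie1 with 28.3 ± 4.79, Egfl7 with 25.9 ± 3.61, Tek with 17.9 ± 11.6 and Cd93 with 17.2 ± 7.62 (SD, n = 3). Emcn followed with 4.56 ± 2.47, Robo4 with 1.12 ± 1.17 and Kdr with 0.551 ± 0.592, and Cdh5 was at 0. Neighbours in this order overlapped over the 3 libraries except Eng and Esam, Esam and Tie1, and Cd93 and Emcn. In CD93neg the order was Esam (99.96 ± 71.3), Tie1 (82.1 ± 86.2), Eng (58.3 ± 49.4), Egfl7 (17.5 ± 15.2), Cd93 (5.16 ± 7.37), Emcn (3.10 ± 5.37), Tek (1.57 ± 2.44) and Robo4 (0.014 ± 0.024). All neighbours of that order overlapped. Tek was the 5th member in CD93pos and the 7th in CD93neg.

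Reads missing from CD93neg replicate 1 were a feature of most genes. Of the 9 tested members 6 had no read there, or 66.7%, against 71.0% of all tested genes. Of 7197 tested genes read in each of the other 5 libraries, 62.4% were unread there. The members of that kind were Cd93, Tek and Egfl7, 3 of 6. Among genes within 1.5 times the level of Cd93 in the other 5 libraries, 67.6% were unread in CD93neg replicate 1. For genes at the level of Tek the same share was 71.9%, and at that of Egfl7 66.7%. Together the 10 genes made up 856, 857 and 795 CPM in CD93pos and 1415, 860 and 867 in CD93neg, and in CD93neg replicate 1 nearly all of these reads were of Tie1 and Esam.

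Whether the endothelial-type genes followed Cd93 over the 6 libraries was measured by profile. For each gene the share of its summed normalized count in each library was taken, and the distance from Cd93 is the percentage that would have to be moved between libraries to match the Cd93 shares, 0 meaning the same profile. Over the 7019 genes whose normalized count averaged 100 or more, the median distance was 33.6% (quartiles 25.4% and 46.2%). Emcn was the nearest member at 22.3%, followed by Egfl7 at 23.9%, Tek at 28.4% and Eng at 30.8%. Esam (59.0%), Robo4 (61.2%), Kdr (62.4%) and Tie1 (66.7%) were farther than the upper quartile. Of the genes compared, 16.1% were nearer to Cd93 than Emcn and 20.5% nearer than Egfl7. Emcn, Robo4 and Kdr average below 100 and so lie under the level of the genes they are set beside. Without CD93neg replicate 1, Esam and Tie1 came to 28.2% and 26.9%. Tek, Egfl7, Emcn, Robo4 and Kdr, like Cd93, had no read in that library, so their distances could not change. The median of the genes compared then fell to 29.2%, and 45.7% of them were nearer than Esam, 40.8% nearer than Tie1 and 54.97% nearer than Eng. The points share libraries and their depth, so distances are a description with no test.

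**Figure D3:**
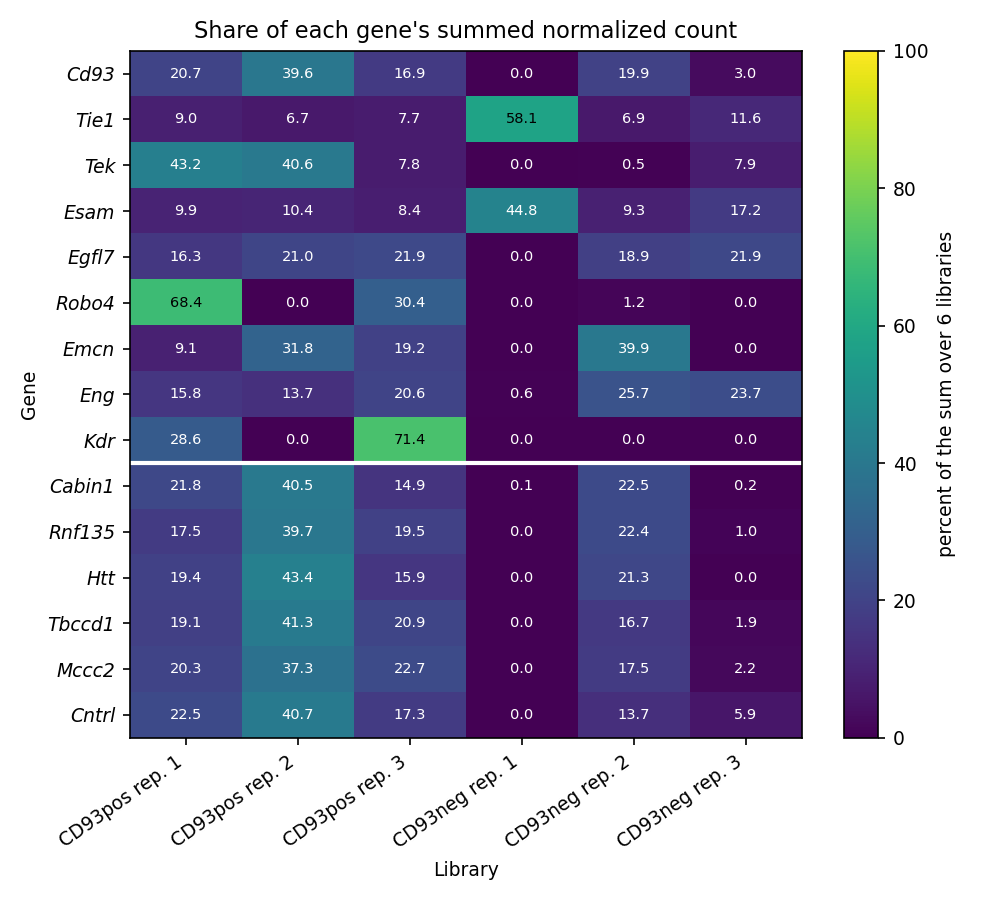
Share of each gene's normalized count summed over 6 libraries that fell in each library, in percent, for 9 members (above the white line) and the 6 genes nearest to Cd93 (below it). Cd93 has 39.6% in CD93pos replicate 2 and 19.9% in CD93neg replicate 2, and the 6 genes below the line have 37.3% to 43.4% and 13.7% to 22.5% there.

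The 6 genes nearest to Cd93 were Cabin1, an inhibitor of calcineurin (4.78%), Rnf135, a ubiquitin ligase of RIG-I signalling (5.17%), Htt, the huntingtin gene (5.21%), Tbccd1 (5.80%), Mccc2, a subunit of the leucine-degrading methylcrotonyl-CoA carboxylase (5.80%), and Cntrl, a centriole protein (6.23%). None belongs to the lists of endothelial genes used here. Cabin1 had normalized counts of 369, 685 and 252 across CD93pos and 1.82, 380 and 3.13 across CD93neg. All 6 were also among the 100 nearest genes on the CPM scale and without CD93neg replicate 1. The latter is no separate check. Cd93 had 0 reads in that library, Cabin1 had 1 and the others had 0, so their distances could hardly change.

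Relatives and partners of Cd93 varied among themselves. Cd93 belongs to a lectin family with Thbd (thrombomodulin, a cofactor of anticoagulation), Clec14a and Cd248. Thbd is the neighbouring protein-coding gene, 28451 bp away on chromosome 2. Thbd had 162, 0 and 108 reads across CD93pos and 0, 0 and 41 across CD93neg. Clec14a had 65, 0 and 107 against 0, 0 and 118, and Cd248 had 32, 0 and 35 against 0, 98 and 0. All 3 were unread in CD93pos replicate 2, the library with the most Cd93. That library lacked any read of 13.5% of all tested genes, Kdr and Robo4 among them. The share among genes at the low level of these 3 was not counted there. The ligands Mmrn2 and Igfbp7 had 1 and 59 reads in all.

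The intracellular and membrane partners of CD93 were abundant. Msn (moesin, a link to actin) had 5700, 4043 and 1248 reads across CD93pos and 0, 2138 and 1452 across CD93neg. Itgb1, the beta-1 integrin, was read in all 6 libraries with 293 or more. Gipc1, an adaptor, had RPKM of 65.2 ± 8.58 in CD93pos and 27.7 ± 25.5 in CD93neg, with a log2 difference of 3.42 (SE 2.62) that was 0.64 (SE 0.38) without CD93neg replicate 1. Of the 9 genes of this list 7 were tested and 0 passed in either direction. Their median log2 difference was 1.72, and -0.099 without CD93neg replicate 1.

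Other genes that HSCs share with endothelium gave a mixed picture as well. Of 14 listed, 11 were tested and 0 passed in either direction. At an unadjusted limma p under 0.05, 1 was higher (Vwf) and 0 lower, against 11.8% and 0.381% of all tested genes. Vwf, the platelet-binding clotting factor stored in endothelium and megakaryocytes, had 651, 674 and 999 reads across CD93pos and 0, 3 and 151 across CD93neg. Its log2 difference was 5.57 (SE 2.39, limma adjusted p = 0.404), and 3.93 (SE 1.77) without CD93neg replicate 1. Cd9, a tetraspanin, had 3236, 1742 and 2824 reads against 0, 565 and 428. Procr, the receptor for activated protein C, had 234, 216 and 324 against 0, 707 and 385, and Myct1 had 1158, 1476 and 1292 against 0, 1626 and 1003. In normalized counts of both, CD93neg replicate 1 was the lowest library and the other CD93neg libraries were the highest. Cd34, whose protein the sort selected against, had 3216, 1603 and 2496 reads across CD93pos and 1715, 0 and 767 across CD93neg. Its log2 difference was 3.20 (SE 2.82) and 5.36 (SE 2.87) without CD93neg replicate 1, and passed in neither case (limma adjusted p = 0.623 and 0.416). Ace, Mcam and Sox17 had no read. The median of the 11 was 2.11, and -0.24 without CD93neg replicate 1.

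Markers restricted to endothelial cells were scarce. Of 16 endothelial-restricted genes, 9 had no read in any library: Cav1, Gpihbp1, Sele, Lyve1, Stab2, Aplnr, She, Sox18 and Sox7. The rest summed to 23.2, 12.3 and 25.2 CPM in CD93pos and 0.353, 15.6 and 61.9 in CD93neg. These sums averaged 20.2 ± 6.97 CPM across CD93pos and 26.0 ± 32.1 CPM across CD93neg (n = 3 each, SD), a difference far inside the spread of CD93neg. With 3 libraries a group an exact two-sided permutation test cannot give a p below 0.1, and here it gave 0.9. Plvap, of fenestrated vessels, had 39, 0 and 1 reads across CD93pos and 0, 0 and 112 across CD93neg, and without CD93neg replicate 3 the CD93pos mean was the higher by 12.2 CPM. Stromal and perivascular markers summed to 13.4, 5.18 and 17.8 CPM in CD93pos and 0, 0 and 0.333 in CD93neg, and Lepr, Pdgfra, Col1a1, Col3a1 and Kitl were at 0. Of the 16 endothelial-restricted genes, 7, 1 and 6 were read across CD93pos and 1, 1 and 3 across CD93neg. Kdr and Robo4 averaged 4.98 and 5.95 CPM in CD93pos. Both were unread in CD93pos replicate 2, which had the lowest endothelial-restricted sum of CD93pos. They were also unread in CD93neg replicate 3, which had the highest such sum of all libraries. The part of endothelial or stromal cells in the levels of Kdr and Robo4 was not tested.

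Blood cell markers differed widely between the libraries in their sums, and those of megakaryocytes less so. B lineage markers, 11 of 13 read and mostly Ighm and Igkc in CD93neg, summed to 76.3 to 102 CPM in CD93pos and to 0.706, 11121 and 34023 CPM in CD93neg, and Rag1 and Igll1 were at 0. Cd93 is a known antigen of immature B cells. Neutrophil markers, all 12 read, summed to 18.1 to 299 CPM in CD93pos and to 0, 13030 and 8682 in CD93neg. Monocyte and macrophage markers, all 10 read, summed to 329 to 475 CPM in CD93pos and to 0, 1125 and 4061 in CD93neg. Megakaryocyte and platelet markers, 9 of 10 read, summed to 1478 to 2335 CPM in CD93pos and 811 to 1820 in CD93neg. Their part in the levels of Cd93, Eng, Emcn or Vwf was not tested. In sorted bulk cells, fewer cells carrying a transcript and less RNA per cell cannot be told apart.

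Erythroid markers, all 9 read, summed to 314 to 630 CPM in CD93pos and to 15.4 to 228 in CD93neg. Mast cell and basophil markers, all 7 read, summed to 635 to 1405 CPM in CD93pos and to 0.353 to 354 in CD93neg. T and NK markers, all 7 read and mostly Nkg7, summed to 175 to 390 CPM in CD93pos and 18.9 to 247 in CD93neg. The part of these cells in the levels of Kdr, Robo4 and Tek was not tested either.

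**Figure D4:**
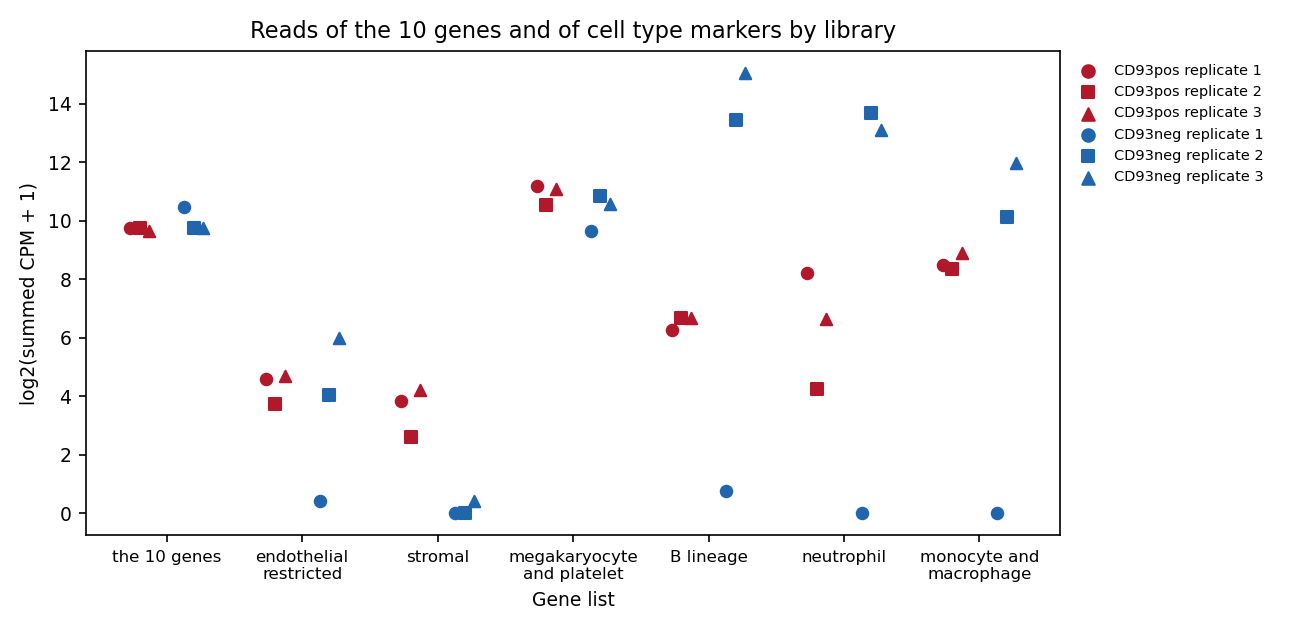
Summed CPM of the 10 genes and of 6 marker lists in each library, on the log2(summed CPM + 1) axis, CD93pos in red and CD93neg in blue. The 10 genes lie between 795 and 1415 CPM, while B lineage markers reach 34023 CPM in CD93neg replicate 3 and 0.706 CPM in CD93neg replicate 1.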

How the data were processed

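Polyadenylated RNA of 3 CD93pos and 3 CD93neg libraries was sequenced, and sample titles gave the groups. Per the submitters' processing notes, STAR, featureCounts (Subread 1.5.0-p1) and DESeq2 1.26 were used with GRCm38. Which annotation release and which strand setting were used was not given in the sources used here. The authors deposited a signal table (read counts over each library's size factor) and a table of log2 fold changes, Wald scores, p-values and adjusted p-values. Whole reads were recovered for 100% of values above 0 (tolerance 0.001).

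The 11805 genes whose normalized count averaged 10 or more were tested with limma 3.58.1 on log2(normalized count + 1), two-sided, with Benjamini-Hochberg adjustment over all of them and a threshold of 0.05. This scale understates changes of low genes and gives large values where libraries are at 0. edgeR 4.0.16 and DESeq2 1.42.0 on recovered reads, other scalings, pseudocounts and filters, the replicate block and left-out libraries were alternatives (R 4.3.3). The scripts were tested on simulated data. RPKM used exonic lengths from GENCODE M21, in which 47224 of 47937 IDs were found. Fold bounds and intervals cover counting error only.

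The members and lists were chosen with earlier results of these data known. Named genes were the 10 members, up to 4 genes per other list with the highest mean RPKM, and the 6 genes nearest to Cd93 by profile, without predicted genes and pseudogenes. Clec14a, Cd248, Thbd, Vwf and genes named for low or absent reads fall outside that rule and were chosen after their values were seen, as were the left-out-library values of ratios, bounds and profiles and the profiles by CPM. Vegfd was matched by its older symbol, Figf.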

Additional observations from a re-analysis of the deposited data

How the results depend on the processing

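Of 142 log2 differences of the 9 tested members under other settings, 135 kept their direction and their side of the threshold. Under quantile normalization Robo4 was -1.07 and Kdr -0.48, and with array quality weights Eng was -0.34. With 1 library left out, Egfl7 ranged from -0.053 to 4.37, Eng from -0.59 to 2.15, Emcn from 2.74 to 6.63, Robo4 from 2.00 to 4.89 and Kdr from 2.15 to 4.94. The number of members called ranged from 0 to 2 in those fits, and was 0 under each other setting. The number of genes called, 0 in the fit reported, was 206 with a pseudocount of 0.5, 707 with DESeq2 and 24 with the replicate block. It ranged from 0 to 1880 with 1 library left out, being 774 without CD93pos replicate 2, 1880 without CD93neg replicate 3 and 1 without CD93neg replicate 1. The cause was not tested.

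The replicate numbers share no stated animal or day. Deviations of same-numbered libraries correlated across genes, which are not independent, at 0.037, 0.019 and 0.061, all below 0.1, though each library correlated best with its own number. The replicate block called no member. The CD93pos minus CD93neg difference of the summed endothelial-restricted markers was -5.74 CPM and ranged from -18.6 to 12.2 with 1 library left out. With 3 libraries a group and many unread genes, Kdr, Robo4 and Cdh5 are near or below what this depth can compare.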

Other observations

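Calcrl, a peptide receptor of endothelium and HSCs, had most of its reads in CD93neg replicate 1, as Tie1 had by normalized count. It had 1943 reads there, 42 and 17 in CD93neg replicates 2 and 3, and 571, 314 and 114 across CD93pos. This gene was chosen after its values were seen.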
